A study of Homo sapiens with 12 samples.

Results

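The mature strands of the miR-17 and miR-18 hairpins and their relatives were followed across cells that carried different forms of the human ribonuclease DICER. The members were the entries named hsa-miR-17-5p, hsa-miR-17-3p, hsa-miR-18a-5p, hsa-miR-18a-3p, hsa-miR-20a-5p, hsa-miR-93-5p, hsa-miR-93-3p, hsa-miR-106a-5p, hsa-miR-106b-5p and hsa-miR-106b-3p, chosen by name, and they made up 10 of the 1346 miRNA entries of the count tables. Small RNA of HCT116, a human colorectal carcinoma line, was sequenced by AQ-seq, a small RNA protocol designed to reduce ligation bias, in 12 libraries of 6 groups with 2 libraries each. The labels name a group by its rescue DICER: R821E (an arginine replaced by glutamate), E5, A5, ΔPAZ helix, R821A (the same arginine replaced by alanine), and wild type (WT). No source used here says what E5 and A5 stand for, what state the cells' own DICER gene was in, which vector and promoter drove the rescue, or whether a line was 1 clone. All 6 groups share the cell line and the rescue design, so WT is rescued cells and not the parental line. The targeted gene could not be checked, because the tables hold small RNAs and no DICER mRNA.

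DICER cuts a hairpin precursor into a duplex of a 5p strand and a 3p strand, and an Argonaute protein keeps 1 of them as the guide. The miR-17-92 cluster and its paralogues are transcribed as polycistrons, are induced by MYC and E2F factors in many tumours, and restrain targets such as CDKN1A and BCL2L11. In these hairpins the 5p strand is usually the guide, and the seed (bases 2 to 8) is the stretch that pairs with targets.

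The mature sequences are shown because seeds define the families and because the 5p strands are nearly the same outside the seed. All 10 names matched RefSeq entries of build GRCh38.p14, from which the sequences were read 5′ to 3′. Capitals mark the seed.
hsa-miR-17-5p: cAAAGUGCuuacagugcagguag
hsa-miR-20a-5p: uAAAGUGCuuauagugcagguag
hsa-miR-93-5p: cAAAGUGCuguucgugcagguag
hsa-miR-106b-5p: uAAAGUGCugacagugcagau
hsa-miR-106a-5p: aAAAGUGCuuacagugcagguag
hsa-miR-18a-5p: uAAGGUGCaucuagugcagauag
hsa-miR-17-3p: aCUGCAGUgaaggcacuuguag
hsa-miR-18a-3p: aCUGCCCUaagugcuccuucugg
hsa-miR-93-3p: aCUGCUGAgcuagcacuucccg
hsa-miR-106b-3p: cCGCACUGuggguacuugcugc
The first 5 share 1 seed and form the miR-17 seed family here. The seed of miR-18a-5p differs from it by 1 base, and each 3p strand has a seed of its own. With positions counted from 1 at the 5′ end and miR-17-5p first, miR-106a-5p differs by C1A alone and miR-20a-5p by C1U and C12U. miR-106b-5p differs by C1U, U10G and G20A and is 2 bases shorter, and miR-93-5p differs by U10G, A11U, C12U and A13C. No source used here gives the rule for counting reads that match several such miRNAs, so the split between miR-17-5p and miR-106a-5p, which differ at 1 base, is uncertain. The only other entry of the tables with a member's seed was miR-18b-5p, with 5 to 26 counts a library, which differs from miR-18a-5p by A20U.

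The hairpins lie at 3 places. MIR17 (chr13:91350618-91350676), MIR18A (chr13:91350756-91350819) and MIR20A (chr13:91351072-91351129) lie on the plus strand inside the noncoding host gene MIR17HG, within an annotated exon. MIR106B (chr7:100094002-100094063) and MIR93 (chr7:100093777-100093837) lie on the minus strand inside the protein-coding gene MCM7, in introns. The mature miR-106a-5p (chrX:134170244-134170266) lies on the minus strand within an exon of the noncoding gene AC002407.1. Spans run from the first base of the 5p strand to the last base of the 3p strand where both are annotated. For 4 of the 5 hairpins whose arms are compared below, the stretch is shown with the 2 mature strands in capitals and the loop between them in lower case, read from the same RefSeq build.
MIR18A: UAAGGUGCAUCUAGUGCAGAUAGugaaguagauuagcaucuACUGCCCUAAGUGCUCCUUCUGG
MIR106B: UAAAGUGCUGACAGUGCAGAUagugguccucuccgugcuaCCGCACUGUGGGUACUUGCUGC
MIR17: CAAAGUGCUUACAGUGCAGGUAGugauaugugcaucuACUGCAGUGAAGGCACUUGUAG
MIR20A: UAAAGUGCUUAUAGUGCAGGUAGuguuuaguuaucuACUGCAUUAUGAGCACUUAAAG
From end to end MIR18A measured 64 bases with a loop of 18, and MIR106B measured 62 bases with a loop of 19. The other three were MIR93 with 61 bases and a loop of 16, MIR17 with 59 and 14, and MIR20A with 58 and 13.

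Libraries held 144067 to 255296 miRNA counts, of which 3 counts correspond to 11.8 to 20.8 CPM, the usual scaling of counts to library size. Spike-in RNAs took 3.71% to 6.96% of all counts, and the most in R821E. After a filter on low counts 374 entries were tested, all 10 members among them. The 2 WT libraries differed from each other more than those of any other group, with a chi-square per degree of freedom of 25.6 over the tables, against 3.83 to 14.6 between the libraries of a mutant. The epithelial markers miR-200a-3p, miR-200b-3p and miR-429 and the abundant miR-31-5p were detected in all 12 libraries, with 26 to 252, 87 to 374, 11 to 97 and 3143 to 12461 counts, while miR-200c-3p and miR-141-3p stayed at 1 to 15 counts. The colorectal epithelial markers miR-192-5p and miR-194-5p were low too, with 19 to 41 and 5 to 46 counts. Markers of other cell types were present in part, and whether they moved with any result was not tested. Among leukocyte markers miR-142-3p had 14 to 117 counts and miR-142-5p 3 to 15, while miR-223-3p and miR-150-5p had at most 3. The stromal and endothelial miR-145-5p had 33 to 142 counts and miR-126-3p 14 to 121, with miR-143-3p and miR-199a-3p at 1 to 15. The erythroid miR-451a had 27 to 45 counts, miR-486-5p 7 to 25 and miR-144-3p 0 to 11. The neuronal miR-9-5p had 114 to 199, and the neuronal miR-124-3p, the hepatocyte miR-122-5p and the muscle miR-133a-3p had at most 2. The labels do not tell whether both libraries of a group go back to different cultures, and the p-values here therefore reflect no more than how these samples scatter, and that scatter may be technical.

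Levels are given as CPM after TMM scaling, which sets libraries on a common scale by assuming that most miRNAs do not change, so a level is relative to the other miRNAs. The other scale, spike-ins, divided counts by the spike-in total of the library. The TMM-scaled library size per spike-in count was 10.9 and 10.7 in R821E libraries, 17.4 to 22.6 in the other 4 mutants, and 25.8 and 27.5 in WT, so a member at an equal TMM level is lower per spike-in count in R821E. Over all 374 entries the median log2 change of R821E against WT was -0.10 on the TMM scale, -0.65 with total miRNA counts as the scale, and -1.38 by spike-ins. No source used here gives the step or the amount at which spike-ins were added. In bulk RNA, fewer cells that hold a miRNA and less of it in each cell cannot be told apart.

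By mean level over the 12 libraries, 5 of the 6 5p members ranked from 39 (miR-20a-5p) to 57 (miR-93-5p) among all entries, followed by miR-93-3p at 103, miR-17-3p at 141, miR-106a-5p at 198, miR-18a-3p at 241 and miR-106b-3p at 255. All members have 21 to 23 bases, and whether length or the capture of each sequence bears on the order was not tested. In R821E the order of means was miR-20a-5p with 5436 ± 639 CPM, miR-18a-5p with 5135 ± 910, miR-106b-5p with 3846 ± 210, miR-17-5p with 3586 ± 121 and miR-93-5p with 3425 ± 409 (SD, n = 2 each). In WT it was miR-17-5p with 3912 ± 1421 CPM, miR-20a-5p with 3598 ± 135, miR-93-5p with 2658 ± 12.5, miR-18a-5p with 2427 ± 68.9 and miR-106b-5p with 2141 ± 286 (SD, n = 2 each). Within R821E the libraries of miR-20a-5p and miR-18a-5p overlapped. Those of miR-93-5p overlapped with miR-106b-5p and with miR-17-5p, and both miR-106b-5p libraries lay above both miR-17-5p libraries. Within WT the miR-17-5p libraries spanned the levels of miR-20a-5p, and those of miR-18a-5p and miR-106b-5p lay side by side without overlap.

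**Figure D1:**
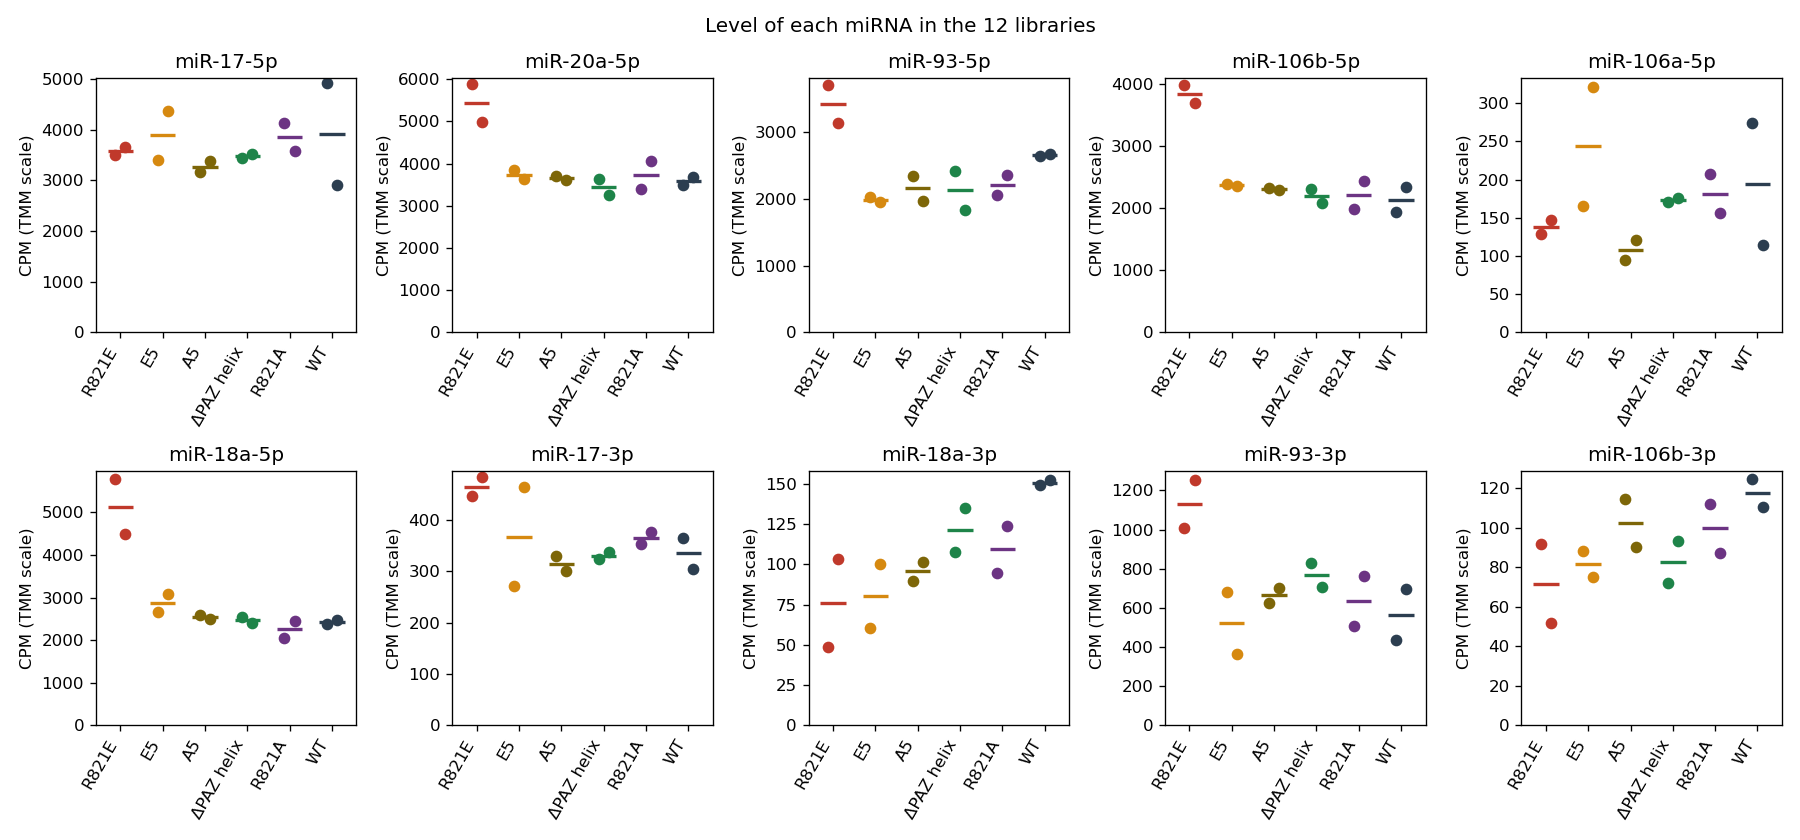
Level of each of the 10 miRNAs in CPM on the TMM scale (y axis, from 0) in each of the 12 libraries; points are libraries, bars are means of 2, and groups run from R821E to WT. The R821E libraries of miR-18a-5p, 5778 and 4492 CPM, stand above all 10 others, while those of miR-17-5p, 3500 and 3671 CPM, lie between its 2 WT libraries.

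The comparison of R821E with WT asks how these miRNAs stood in cells whose DICER carried glutamate in place of the arginine. Relative to the other miRNAs, miR-18a-5p, miR-106b-5p, miR-93-3p and miR-20a-5p were higher in R821E and miR-18a-3p was lower, 5 of 10 members, whereas none of the 10 was higher by spike-ins and 7 were lower. Over all 374 entries tested, 23.8% were called higher and 24.1% lower on the TMM scale, and the members' 4 higher and 1 lower are read against that background. The members' median log2 change was 0.42 on the TMM scale. A call is an adjusted p under 0.05 in edgeR's quasi-likelihood test with Benjamini-Hochberg adjustment over all 374 entries. With total miRNA counts as the scale, 1 member was called higher and 3 lower, and the whole table held 40 higher and 148 lower calls in place of 89 and 90.

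In the miR-18 seed, miR-18a-5p had 5778 and 4492 CPM in R821E libraries, against 2379 and 2476 CPM in WT. Both R821E libraries lay above all 10 libraries of the other groups, which spanned 2047 to 3076 CPM. Its log2 change was 1.08 ± 0.156 (SE, edgeR quasi-likelihood, Benjamini-Hochberg adjusted p = 0.000144), yet per 1000 spike-in counts it had 63.2 and 48.2 in R821E and 61.3 and 68.1 in WT, a log2 change of -0.21 that was not called (edgeR adjusted p = 0.349). The groups overlapped on that scale. Its partner strand miR-18a-3p, usually degraded as the passenger, had 48.9 and 104 CPM in R821E libraries (8 and 12 counts), against 149 and 153 CPM in WT (43 and 40 counts). Both R821E libraries were below both WT libraries, and the log2 change was -1.04 ± 0.398 on the TMM scale (edgeR adjusted p = 0.0437) and -2.33 by spike-ins (adjusted p = 0.000186). The TMM call for miR-18a-3p was lost without either WT library (adjusted p = 0.0964 and 0.0852), without R821E library 1 (0.42), and in DESeq2 (0.13).

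Within the miR-17 seed family, miR-106b-5p and miR-20a-5p passed the test and miR-17-5p, miR-93-5p and miR-106a-5p did not. miR-106b-5p had 3995 and 3697 CPM in R821E libraries, against 1938 and 2343 CPM in WT. Its log2 change was 0.85 ± 0.151 on the TMM scale (edgeR adjusted p = 0.000648) and -0.45 ± 0.193 by spike-ins (adjusted p = 0.0547). Both R821E libraries were above both WT libraries in CPM, and both were below them per spike-in count, at 43.7 and 39.7 in R821E against 50.0 and 64.4 per 1000 in WT. With total miRNA counts as the scale the call was lost, at 0.30 (edgeR adjusted p = 0.0904). miR-20a-5p had 5888 and 4984 CPM in R821E libraries, against 3502 and 3693 CPM in WT. Without overlap in either direction, its log2 change was 0.60 ± 0.140 on the TMM scale (edgeR adjusted p = 0.00385) and -0.70 by spike-ins (adjusted p = 0.00407), so its direction is set by the scale. The call of miR-20a-5p was lost without a low-count filter, at a log2 change of 0.43 (edgeR adjusted p = 0.11). It was also lost with total miRNA counts as the scale, where its log2 change was 0.05 (edgeR adjusted p = 0.768).

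miR-17-5p, the founding member of the family, had 3500 and 3671 CPM in R821E libraries, against 4917 and 2907 CPM in WT. The R821E values fell between the WT values. Its log2 change was -0.13 ± 0.205 on the TMM scale (edgeR adjusted p = 0.636) and -1.41 by spike-ins (adjusted p = 3.84e-05). The TMM value rested on which WT library was kept, being 0.35 without WT library 1 (edgeR adjusted p = 0.129) and -0.46 without WT library 2 (adjusted p = 0.0376, a call). miR-93-5p had 3714 and 3136 CPM in R821E libraries, against 2649 and 2667 CPM in WT, so the groups did not overlap, and its log2 change was 0.37 (edgeR adjusted p = 0.0781) on the TMM scale and -0.93 (adjusted p = 0.00118) by spike-ins. Without R821E library 2 its TMM change was 0.56 and passed the test (edgeR adjusted p = 0.0484). miR-106a-5p, the one member from the X chromosome, had 128 and 147 CPM in R821E libraries and 274 and 114 CPM in WT, with overlap. Its log2 change was -0.51 on the TMM scale (edgeR adjusted p = 0.339) and -1.79 by spike-ins (adjusted p = 0.00182, a lower call).

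Among the other 3p strands, miR-93-3p had 1008 and 1253 CPM in R821E libraries, against 433 and 694 CPM in WT. It was above WT in both libraries, with a log2 change of 1.00 ± 0.306 on the TMM scale (edgeR adjusted p = 0.0154) and -0.31 by spike-ins (adjusted p = 0.463). The TMM call was lost without WT library 1 (adjusted p = 0.0834) and without R821E library 2 (0.0851). miR-17-3p had 446 and 484 CPM in R821E libraries, against 364 and 305 CPM in WT, a log2 change of 0.47 that was not called (edgeR adjusted p = 0.146) and was -0.82 by spike-ins. miR-106b-3p, the least abundant member, had 91.6 and 51.8 CPM in R821E libraries (15 and 6 counts), against 125 and 111 CPM in WT (36 and 29 counts). Both R821E libraries were below WT, with a log2 change of -0.67 (edgeR adjusted p = 0.16) on the TMM scale and -1.95 by spike-ins (adjusted p = 0.000348).

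On the spike-in scale 60.4% of all entries were called lower in R821E than in WT, beside 7 of the 10 members. The 3 members not called lower were miR-18a-5p, miR-93-3p and miR-106b-5p. The members' median log2 change was -0.88 there, against -1.38 over all entries. All 10 members had a negative value, which is read against that negative median of the whole table. The share of all entries with a negative value was not counted.

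**Figure D2:**
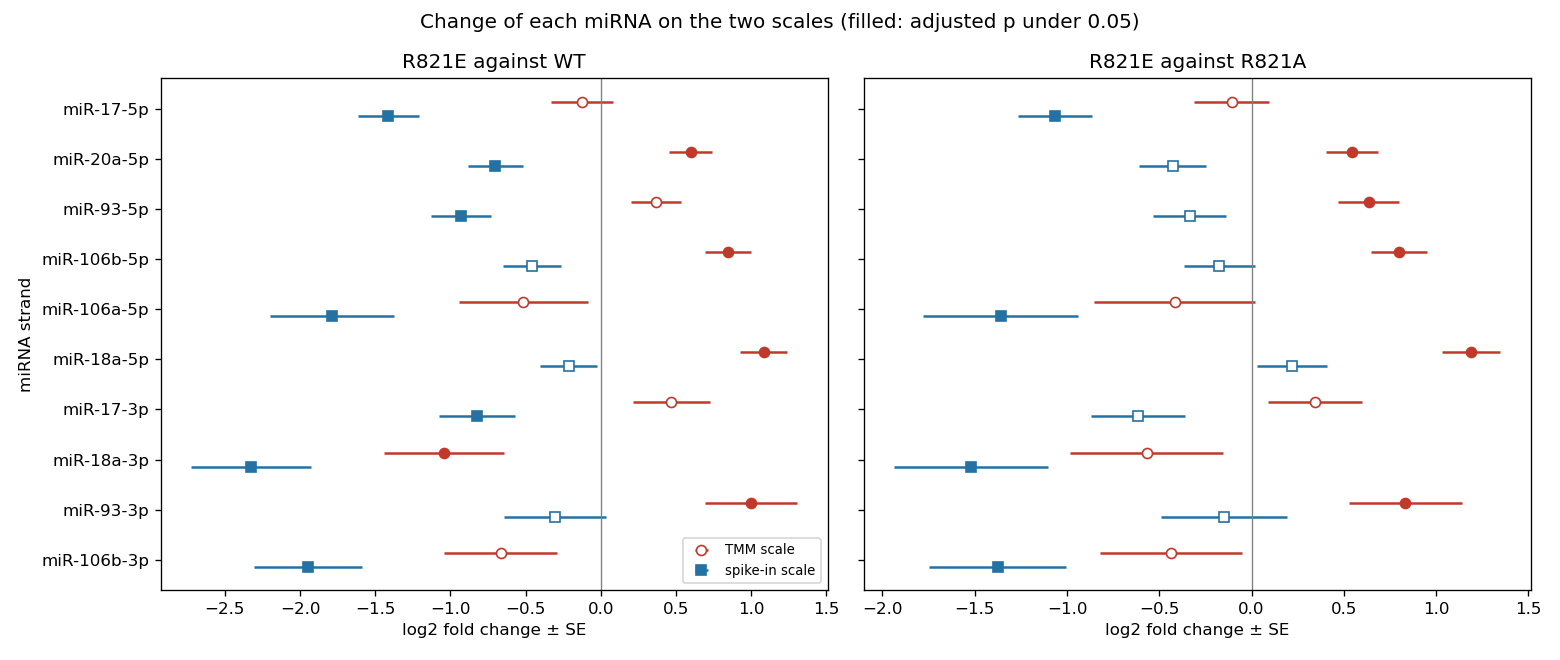
log2 fold change with its SE (x axis) of each miRNA (y axis) in R821E against WT and in R821E against R821A, on the TMM scale (circles) and the spike-in scale (squares); filled marks have an adjusted p under 0.05. For R821E against WT, miR-18a-5p has 1.08 on the TMM scale and -0.21 by spike-ins, and miR-17-5p has -0.13 and -1.41.

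Ratios of 2 members within a library do not depend on the scale. miR-17-5p over miR-20a-5p, which are excised from 1 transcript, was 0.594 and 0.737 in R821E libraries, against 1.40 and 0.787 in WT. It was below the values of all 10 other libraries in R821E, although WT library 2 lay close by. miR-17-5p over miR-18a-5p was 0.606 and 0.817 in R821E libraries, against 2.07 and 1.17 in WT, and the 8 libraries of the other mutants spanned 1.23 to 2.02. The 2 R821E libraries were the only ones of the 12 with more miR-18a-5p than miR-17-5p. miR-20a-5p over miR-18a-5p was 1.02 and 1.11 in R821E libraries, against 1.47 and 1.49 in WT, with the other mutants at 1.18 to 1.66. These ratios were not tested and are given as descriptions.

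Summed over its 5 members, the miR-17 seed family took 1.24% ± 0.0188 of miRNA counts in R821E and 1.39% ± 0.201 in WT (SD, n = 2 each), a difference within the spread of WT. Within the family, as a description without a test, miR-17-5p supplied 20.3% and 23.5% of the family's counts in R821E libraries, against 37.0% and 24.8% in WT, and 27.2% to 35.1% in the other mutants. miR-106b-5p supplied 23.4% ± 0.322 in R821E and 17.3% ± 3.81 in WT, and miR-20a-5p supplied 33.0% ± 1.63 in R821E and 28.9% ± 3.63 in WT (SD, n = 2 each). All 10 members together took 1.76% ± 0.00927 of miRNA counts in R821E and 1.78% ± 0.201 in WT (SD, n = 2 each).

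The 2 strands of a hairpin come from the same precursor, so their ratio asks how a hairpin's output divides between its arms, on any scale. The test was limma on the log2 ratio of 5p to 3p counts, each with 0.5 added, over 69 hairpins whose arms both averaged 20 counts or more. Of the 5 hairpins of this family that could be tested, miR-18a and miR-106b shifted toward 5p in R821E against WT and 3 were not called. Across all 69 hairpins 56.5% were called, 30 toward 5p and 9 toward 3p, so 2 of 5 is not above the background.

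In the miR-18a hairpin the 3p strand held 0.839% (95% Wilson interval 0.426% to 1.65%) and 2.26% (1.29% to 3.90%) of counts in R821E libraries, against 5.90% (4.41% to 7.85%) and 5.81% (4.29% to 7.81%) in WT. Intervals cover counting error only and leave out the spread between libraries. They take each read as independent, and no source used here says that amplified reads were reduced to separate molecules. The shift was 2.10 ± 0.406 on the log2 scale toward 5p (limma, Benjamini-Hochberg adjusted p = 0.00234), and leaving out 1 library at a time kept it between 1.39 and 2.81 with a call each time. The other 8 mutant libraries lay at 2.23% to 5.32%, all below both WT libraries too. In the miR-106b hairpin the 3p strand held 2.24% (1.36% to 3.67%) and 1.38% (0.635% to 2.98%) in R821E libraries, against 6.05% (4.40% to 8.26%) and 4.51% (3.16% to 6.40%) in WT. The shift toward 5p was 1.56 ± 0.351 (limma adjusted p = 0.00559), and R821E lay below all 10 other libraries, which spanned 3.01% to 6.05%. Behind these shares stand 6 to 15 counts of each 3p strand in R821E libraries. How many of all tested hairpins separate from the other groups in these ways was not counted.

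The remaining hairpins had values of the opposite sign. The 3p share of miR-17 was 11.3% and 11.6% in R821E libraries, against 6.89% and 9.50% in WT, a shift of -0.56 (limma adjusted p = 0.0772). That of miR-20a was 11.8% and 11.1% in R821E libraries, against 5.08% and 9.62% in WT, a shift of -0.77 (limma adjusted p = 0.0554). In both hairpins R821E lay above all 10 other libraries without passing the test. The number of tested hairpins that separate like this was not counted, so the separation is a description only. Leaving out WT library 2 made both of them calls toward 3p, at -0.81 for miR-17 (limma adjusted p = 0.0332) and -1.27 for miR-20a (adjusted p = 0.00578), while without WT library 1 they were -0.31 (adjusted p = 0.443) and -0.28 (adjusted p = 0.496). miR-93, the hairpin with the most balanced strands, had a 3p share of 21.3% and 28.5% in R821E libraries, against 14.1% and 20.7% in WT, a shift of -0.67 (limma adjusted p = 0.14) with R821E overlapping the other mutants at 15.7% to 27.8%.

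**Figure D3:**
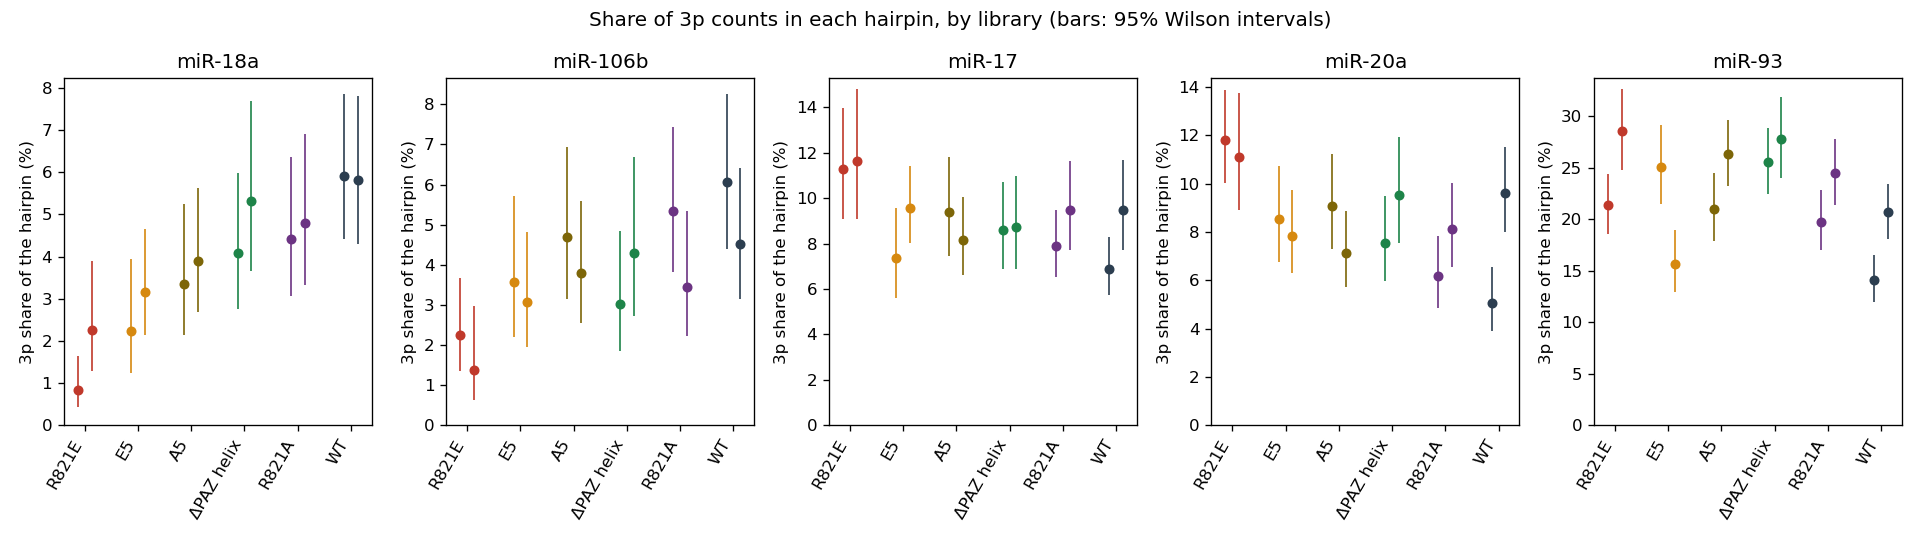
Share of the 3p strand in the counts of each hairpin in percent (y axis, from 0) for the 12 libraries, with 95% Wilson intervals that cover counting error only. In miR-18a the R821E libraries have 0.839% and 2.26% and the WT libraries 5.90% and 5.81%, whereas in miR-17 the R821E libraries have 11.3% and 11.6% and the WT libraries 6.89% and 9.50%.

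The hairpins that shifted toward 5p, miR-18a and miR-106b, were the longest of the 5 (64 and 62 bases), and the shifts of the shorter ones were -0.67 at 61 bases, -0.56 at 59 and -0.77 at 58. Whether length bears on the shift was not tested, and the rest of the table is described beside it. Among 53 tested hairpins with 1 locus and both strands in RefSeq, 48 were outside this family, and in them the shift and the precursor length had a Pearson r of -0.28 and a Spearman rho of -0.26. Of those 48 hairpins, 6 of 17 with 62 bases or more and 17 of 31 shorter ones were called toward 5p. These correlations run across hairpins of the same libraries and describe them only. All 5 precursors begin their 3p strand with A except miR-106b, which begins with C, and their 5p strand with U (miR-18a, miR-20a, miR-106b) or C (miR-17, miR-93).

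Strands made from the same primary transcripts gave values of both signs. The list of cluster mates held 18 other strands of the MIR17HG, MCM7 and X-linked clusters, of which 10 were tested. In R821E against WT 2 of the 10 were higher and 4 lower on the TMM scale, with a median log2 change of -0.70, and none was higher and 8 were lower by spike-ins. miR-25-3p, encoded beside miR-93 and miR-106b, had 562 and 596 CPM in R821E libraries, against 4071 and 3457 CPM in WT, a log2 change of -2.70 ± 0.162 (edgeR adjusted p = 6.9e-08). miR-92a-3p, which MIR17HG and the X-linked cluster both encode, changed by -1.58 (edgeR adjusted p = 1.41e-06). miR-19b-3p, also encoded by both, changed by -1.01 (edgeR adjusted p = 0.00593) and miR-19a-3p by -0.59 (adjusted p = 0.0177). These 4 lower calls held by spike-ins. The 2 higher ones were miR-20a-3p at 1.29 (edgeR adjusted p = 0.0057) and miR-19b-1-5p at 0.76 (adjusted p = 0.00273), with -0.01 and -0.53 by spike-ins, of which the value of miR-19b-1-5p was a lower call (adjusted p = 0.0194). miR-25-5p (-2.20), miR-92a-1-5p (-2.07) and miR-19a-5p (-1.87) were called lower by spike-ins and not on the TMM scale.

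The contrast within the MCM7 cluster did not depend on scale. miR-106b-5p over miR-25-3p was 7.11 and 6.20 in R821E libraries, against 0.476 and 0.678 in WT. The 8 libraries of the other mutants spanned 0.771 to 1.42, above both WT libraries and below both R821E libraries. miR-25-3p itself was lower than WT in E5 (-1.01, edgeR adjusted p = 0.00199), ΔPAZ helix (-0.92, adjusted p = 0.00878) and R821A (-0.76, adjusted p = 0.00615), in comparisons that share the 2 WT libraries. Among the cluster mates outside MCM7, miR-92a-3p was also lower than WT in E5 (-0.49, edgeR adjusted p = 0.0266).

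**Figure D4:**
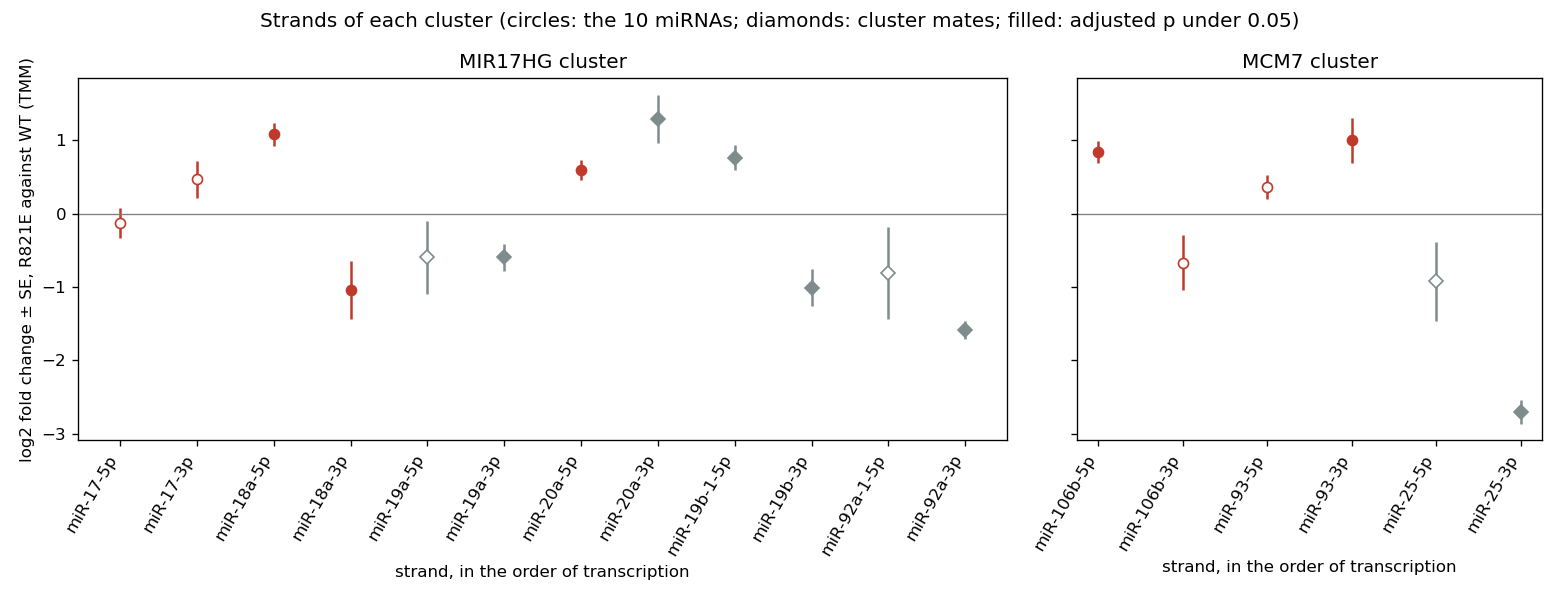
log2 fold change with its SE (y axis) of R821E against WT on the TMM scale for strands of the MIR17HG and MCM7 clusters in the order of transcription (x axis); circles are the 10 miRNAs, diamonds their cluster mates, and filled marks have an adjusted p under 0.05. In the MCM7 cluster miR-106b-5p has 0.85 and miR-25-3p has -2.70.

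Glutamate and alanine in place of the same arginine were compared directly. Relative to the other miRNAs, 5 of 10 members were higher in R821E than in R821A and none lower on the TMM scale, also at an unadjusted p under 0.05, whereas none was higher and 4 were lower by spike-ins. The background of this comparison was 21.9% higher and 19.5% lower of 374 entries on the TMM scale, and 48.9% lower by spike-ins, and total miRNA counts as the scale gave 19 higher and 132 lower calls in place of 82 and 73. miR-18a-5p had 5778 and 4492 CPM in R821E libraries, against 2047 and 2457 CPM in R821A, a log2 change of 1.19 ± 0.157 on the TMM scale (edgeR adjusted p = 0.000166) and of 0.22 by spike-ins (adjusted p = 0.4). miR-106b-5p had 3995 and 3697 CPM in R821E libraries, against 1987 and 2439 CPM in R821A, a log2 change of 0.80 (edgeR adjusted p = 0.00145) on the TMM scale and -0.17 by spike-ins. miR-93-5p, not called against WT, had 3714 and 3136 CPM in R821E libraries, against 2064 and 2356 CPM in R821A, a log2 change of 0.63 (edgeR adjusted p = 0.00941) on the TMM scale and -0.34 by spike-ins.

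The other two higher calls were miR-20a-5p at 0.55 (edgeR adjusted p = 0.00898, -0.43 by spike-ins) and miR-93-3p at 0.83 (adjusted p = 0.042, -0.15 by spike-ins). The R821E libraries of these 5 members lay above both R821A libraries in CPM, as did those of miR-17-3p, which was not called. How many of all entries separate in this way was not counted. The calls of miR-20a-5p, miR-93-5p and miR-93-3p were lost without R821E library 1, without R821A library 1 and without a low-count filter, and that of miR-93-3p also without R821E library 2. The 4 members lower by spike-ins were miR-18a-3p (-1.52, edgeR adjusted p = 0.00789), miR-106b-3p (-1.38, adjusted p = 0.00708), miR-106a-5p (-1.36, adjusted p = 0.0151) and miR-17-5p (-1.07, adjusted p = 0.000579). In the arm ratio 39.1% of 69 hairpins were called. Among the family's 5, miR-18a shifted toward 5p by 1.74 ± 0.406 (limma adjusted p = 0.00623) and miR-106b by 1.27 ± 0.351 (adjusted p = 0.0125), and that of miR-106b was lost without R821E library 2 or R821A library 1. The 3p share of miR-18a was 0.839% and 2.26% in R821E libraries and 4.42% and 4.80% in R821A.

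In E5, A5, ΔPAZ helix and R821A no member passed the test against WT on the TMM scale, in comparisons that share the WT libraries. In edgeR 0 of 10 passed in each, DESeq2 also gave 0, and at an unadjusted p under 0.05 edgeR gave 2 in E5 and 0 in the others. Of all 374 entries, 9.09% were called in E5, A5 and ΔPAZ helix had 0.267% each, and R821A had 3.21%. A member's lowest adjusted p in edgeR was 0.151 for E5 and 0.361 for A5, 0.476 for ΔPAZ helix and 0.622 for R821A. The 2 in E5 were miR-93-5p at -0.42 and miR-18a-3p at -0.87 (edgeR adjusted p = 0.151 and 0.179).

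In the 4 mutants together, 2 of 10 members, these same strands, had all 8 libraries below both WT libraries in CPM, as did 7.22% of all 374 entries. miR-93-5p had 2025 and 1953 CPM in the libraries of E5, 2344 and 1971 for A5, 2416 and 1837 for ΔPAZ helix, 2064 and 2356 for R821A, and 2649 and 2667 CPM in WT. Each of these 8 libraries was under both WT values, while R821E was above them. This combination was seen in 1 of the 374 entries, which is miR-93-5p itself, so that count is no background for it. miR-18a-3p had 60.7 and 100 CPM in the libraries of E5, 89.8 and 102 for A5, 108 and 135 for ΔPAZ helix, 94.6 and 124 for R821A, and 149 and 153 CPM in WT, and again all 8 were below WT. miR-93-5p over miR-106b-5p, free of any scale, was 0.827 to 1.04 in these 8 libraries and 0.848 and 0.930 in R821E, against 1.37 and 1.14 in WT. The 4 comparisons share WT, and none of these levels passed the test on the TMM scale.

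Per spike-in count edgeR called 5 members lower in E5, where 27.3% of all entries were lower. A5 had 3 members lower (14.7% of all entries), ΔPAZ helix had 1 (13.1%), and R821A had 0 (4.28%), with 3 at an unadjusted p under 0.05. In E5 the 5 were miR-18a-3p (-1.47), miR-106b-3p (-1.12), miR-93-5p (-1.01), miR-17-5p (-0.59) and miR-20a-5p (-0.54). In A5 they were miR-106a-5p (-1.29), miR-93-5p (-0.76) and miR-17-5p (-0.70), and in ΔPAZ helix miR-93-5p (-0.76). All 10 members had negative values on this scale in each of the 4 mutants, which is read against a negative median of the whole table. For R821A the median log2 change by spike-ins was -0.39 over the members and -0.35 over all 374 entries. The same 2 medians were -0.57 and -0.56 for E5, -0.56 and -0.45 for ΔPAZ helix, and -0.61 and -0.46 for A5. How many of all entries had negative values was not counted.

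No member hairpin passed the arm test in these mutants. In E5, where 4.35% of 69 hairpins were called, limma gave 0 of 5 and 1 at an unadjusted p under 0.05, which was miR-18a with a shift of 1.16 toward 5p (adjusted p = 0.157). In A5, ΔPAZ helix and R821A no hairpin of the 69 was called, with 6, 9 and 8 at an unadjusted p under 0.05, and of the members 0, 1 (miR-93) and 0. For miR-18a the shift toward 5p was 0.71 (A5), 0.34 (ΔPAZ helix) and 0.35 (R821A).

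Between E5 and A5 no member passed the test. edgeR called 0 of 374 entries and DESeq2 0, with 36 entries and 1 member at an unadjusted p under 0.05 in edgeR. That member was miR-106a-5p, with 166 and 321 CPM in E5 libraries, against 94.8 and 120 CPM in A5. E5 lay above A5 in both libraries, by 1.18 on the log2 scale (edgeR adjusted p = 0.445).

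Entries with the most similar pattern were looked up for 4 members by the Pearson correlation of log2 CPM over the 12 libraries, among 249 or 250 entries that averaged 100 CPM or more. The points share groups, so a group that stands apart sets most of a correlation, and r is given again without the 2 R821E libraries. For miR-17-5p they were miR-106a-5p (r = 0.88, 0.90 without R821E), miR-191-5p (0.75, 0.76) and miR-330-5p (0.75, 0.76). For miR-18a-5p they were miR-590-5p (0.97, 0.81), miR-106b-5p (0.96, 0.66) and miR-29a-5p (0.94, 0.55). miR-93-5p was closest to miR-20a-5p (0.84, 0.34), miR-203a-5p (0.81, 0.31) and miR-1275 (0.81, 0.23), and miR-106b-3p to miR-429 (0.80, 0.75), miR-29c-3p (0.77, 0.44) and miR-769-3p (0.76, 0.52). The patterns of miR-18a-5p and miR-93-5p were thus set in large part by R821E, and that of miR-17-5p was not. Reads shared between miR-17-5p and miR-106a-5p through their 1-base difference would also give a high r, and that was not tested.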

How the data were processed

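Raw counts per miRNA entry, with no normalisation, were deposited by the authors for each of the 12 libraries. Per the submitters' processing notes the tools were bedtools, BWA and cutadapt, with hg38 and mm10 as builds. No source used here gives versions, the role of each build or the counting rule. The 30 spike-in entries of the tables entered neither library sizes nor tests. In R 4.3.3, edgeR 4.0.16 (quasi-likelihood, robust, TMM, filterByExpr by group) fitted all 12 libraries at once (6 residual degrees of freedom), with Benjamini-Hochberg adjustment over 374 entries holding 99.6% of miRNA counts. Arm ratios used limma 3.58.1 (trend, robust) on 69 hairpins. Both steps were also run on simulated counts in which all entries shared a common dispersion (spread). That setting is simpler than these data and its outcome is not given here, so nothing is drawn from it. Alternatives were DESeq2 1.42.0, other scales (DESeq2 size factors, total miRNA counts, spike-in counts), filters, a fit of just the 4 libraries at issue, a replicate block and each library left out. A total of 7 comparisons were made. All 10 members are named. A cluster mate is named where it was called in at least 1 comparison on the TMM or the spike-in scale, and for the 4 strands compared by pattern the 3 most correlated entries are named. Members, lists and tests were chosen with earlier results of these data known.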

Additional observations from a re-analysis of the deposited data

How the results depend on the processing

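Of the single-miRNA values under alternative settings, 772 kept their side of the threshold (values never called may still differ in sign), 30 lost and 20 gained a call, and 11 with a call on either side changed sign, all 11 on the spike-in scale. In R821E against WT these were miR-17-3p (-0.82), miR-18a-5p (-0.21), miR-20a-5p (-0.70), miR-93-5p (-0.93), miR-93-3p (-0.31) and miR-106b-5p (-0.45), in E5 against WT miR-20a-5p (-0.54), and in R821E against R821A miR-20a-5p (-0.43), miR-93-5p (-0.34), miR-93-3p (-0.15) and miR-106b-5p (-0.17). The scale itself sets them. Members called in R821E against WT were 5, with 3 in the fit without a low-count filter and 3 to 5 when a library was left out, and in R821E against R821A 5, with 1 on total counts, 2 without a filter and 2 to 5 when a library was left out. On the spike-in scale E5 had 5, A5 3 and ΔPAZ helix 1 in place of 0. Arm calls among member hairpins were 2 in R821E against WT and 2 against R821A, and both counts changed with the library left out. In the fit of the 4 R821E and R821A libraries, miR-18a and miR-106b fell under the 20-count minimum and were not tested. The 1 call of that fit was toward 3p, in a hairpin not called in the main fit. A minimum of 100 counts in both arms left miR-93 alone and 0 calls in both comparisons, and without WT library 1 miR-106b fell under the 20-count minimum. miR-18a-5p and miR-106b-5p kept their calls in R821E against WT in DESeq2, without a filter, in the 4 libraries compared and without each library, and on total counts miR-18a-5p kept its call and miR-106b-5p lost it (0.30). With the replicate block, 5 members were called in R821E against WT and 4 against R821A, where miR-93-3p was lost. Same-numbered libraries deviated together in 1 of 15 pairs of groups (r from -0.50 to 0.37), so the numbers were not used as pairs. Over all entries E5 against WT had 34 calls, 19 in DESeq2, 22 with the block and 0 in the 4 libraries, and R821A had 12 and 0 in the 4 libraries. With 2 libraries a group and 6 to 15 counts of miR-18a-3p and miR-106b-3p in R821E, small changes of the rare strands were not detectable at this depth.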

Other observations

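Libraries of 1 group differed in which members they held most of. miR-17-5p had 1418 and 762 counts in the WT libraries, a gap of 4917 against 2907 CPM, while miR-20a-5p from the same transcript had 3502 and 3693 CPM there. miR-106a-5p, which differs from miR-17-5p at 1 base, had 274 and 114 CPM in the same WT libraries, and miR-19b-3p had 3700 and 2381 CPM. In E5 it was library 2 that was high for these miRNAs, at miR-17-5p, miR-106a-5p and miR-19b-3p levels of 4374, 321 and 4599 CPM, against 3410, 166 and 2544 CPM in library 1. The cause was not tested. Among the other seed mates, miR-18b-5p had 140.5 and 86.4 CPM in R821E and 86.7 and 26.7 CPM in WT, and its log2 change of 1.01 ± 0.577 was not called (edgeR adjusted p = 0.165).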
